A study of Homo sapiens with 6 samples.

Results

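Claudin transcripts were followed in L3.6pl, a long-established line of human pancreatic cancer, in 3 libraries of parental cells and 3 libraries of ARID1A-deficient cells. The parental samples are labelled as wild type. The ARID1A-deficient samples are titled as a knockout of ARID1A, which encodes a DNA-binding part of SWI/SNF, a complex that moves nucleosomes. Both groups were grown in minimum essential medium with fetal calf serum and were given no drug. Polyadenylated RNA was sequenced, and the tables list 1 level per gene in FPKM, a fragment number divided by transcript length and adjusted for library size. The labels do not say how the gene was disrupted, whether the ARID1A-deficient samples come from 1 clone or several, or whether the 3 samples of a group were separate cultures. The p-values therefore measure only the spread between these samples, and the lack of ARID1A and other differences that may exist between the cells cannot be told apart. The 10 claudin genes described here were found by their symbols, among 23 claudin rows and 23245 rows in all.

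Claudins are small membrane proteins that span the membrane several times and form the strands of tight junctions, the seals between neighbouring epithelial cells. Some tighten the seal, as CLDN1, CLDN3, CLDN4, CLDN7 and CLDN18 are known to do in many epithelia. Others, among them CLDN2, CLDN15 and CLDN16, form pores for small cations. In pancreatic ductal tumours CLDN4, CLDN7 and the gastric form of CLDN18 are known as surface markers. Most claudins end in a short motif that binds the PDZ domains of the scaffold proteins ZO-1 and ZO-3, encoded by TJP1 and TJP3.

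ARID1A itself was at 11.8, 6.76 and 9.42 FPKM in parental libraries 1, 2 and 3 and at 3.55, 3.28 and 3.61 FPKM in the same order of ARID1A-deficient libraries, an order kept below. Summed values were 576084 to 792187 FPKM per library. Fragment totals are not used here, and the spacing of the lowest values put the depth at 0.732 to 1.28 times that of parental library 1. Across genes, which do not count as replicates, Pearson's r between libraries lay between 0.941 and 0.965 for pairs in the same group and between 0.919 and 0.943 for pairs in different groups. All 8 epithelial and ductal markers looked at were measurable, with keratins 7, 8, 18 and 19 among them, and their sum was 6303 to 9860 FPKM in parental and 4562 to 5769 FPKM in ARID1A-deficient libraries. These keratins made up most of the sum. SOX9 and MUC1 went the other way, with means of 6.14 and 15.5 FPKM in parental and 11.9 and 27.6 FPKM in ARID1A-deficient libraries. In the test described below 1 of the 8, SOX9, was higher and 0 were lower, beside 15.9% of all genes called. Of 10 fibroblast markers, DCN and LUM had a listed value of 0 in all 6 libraries, and the sum was 20.7 to 24.4 FPKM against 83.0 to 95.2 FPKM. COL1A1 made up most of the parental sum, at 18.9 to 22.2 FPKM, with COL1A2 at 0.0642 to 0.113 FPKM there. In ARID1A-deficient libraries COL1A1, at 39.0 to 49.6 FPKM, and COL1A2, at 42.2 to 43.9 FPKM, made up most of it. Of 9 endothelial markers, CDH5, EGFL7 and PECAM1 were measurable and VWF reached 0.0291 FPKM at most, with sums of 120 to 215 FPKM and 178 to 267 FPKM. The leukocyte marker PTPRC was above 0 in 1 library, at 0.0442 FPKM, and the 9 leukocyte markers summed to 8.51 to 9.87 FPKM and 5.95 to 7.72 FPKM, nearly all from CD68. The 7 acinar markers summed to 1.02 to 1.09 FPKM and 1.64 to 3.19 FPKM. The part of these differences in the claudin values was not tested.

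CLDN1, CLDN3 and CLDN4 rose in ARID1A-deficient cells, and no claudin passed the test as lower. All 3 belong to the barrier-forming claudins, but higher values were not particular to that class. The pore former CLDN15 was 1.69-fold higher and fell just short of the threshold, and the barrier former CLDN7 did not pass. CLDN4 rose 3.62-fold, CLDN1 rose 2.57-fold and CLDN3 rose 1.98-fold, while the groups overlapped for CLDN7, the most abundant member. The test was limma on log2(FPKM + 1) across all 12826 genes whose mean reached 0.5 FPKM, with p-values adjusted by the Benjamini-Hochberg method. Of the 10 members, 7 reached that mean. Among them 3 were higher, 0 were lower and 4 did not pass, and at an unadjusted p under 0.05 there were 4 higher and 1 lower. Over all genes tested, 15.9% passed, 7.82% as higher and 8.11% as lower. These shares moved with single libraries, since 1003 genes were higher and 1040 lower with all 6, but 2009 and 2104 without parental library 2. The counts were 522 to 663 higher and 438 to 598 lower when the library left out was parental 3 or one of the ARID1A-deficient ones. The median log2 fold change was 0.71 over the 7 tested members and -0.015 over all genes tested. In RNA of whole cultures, a change in the number of cells with a transcript and a change in its amount per cell cannot be told apart. A log2 fold change here is a difference of log2(FPKM + 1), which understates the change of low genes, and a fold is the ratio of the group means in FPKM.

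**Figure D1:**
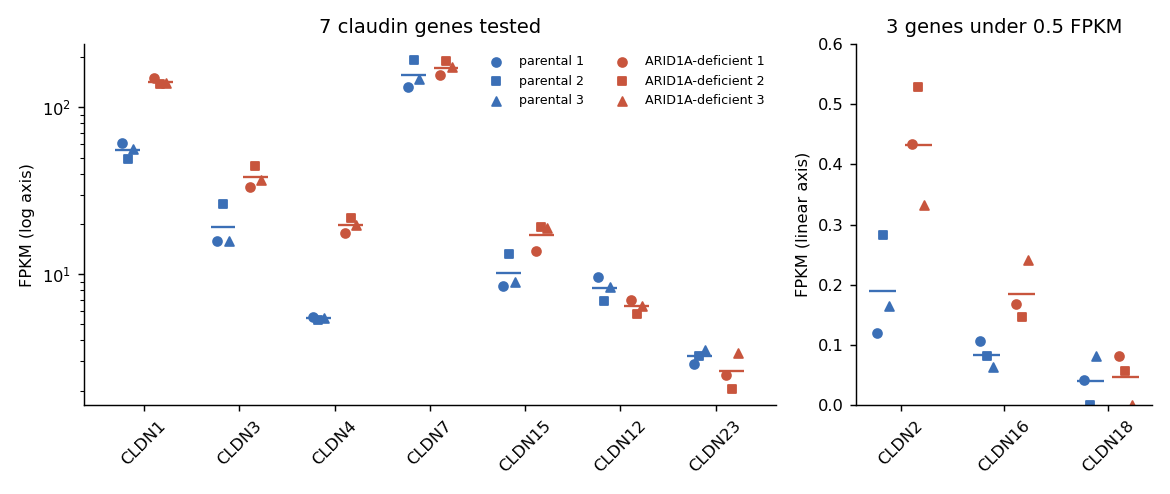
FPKM of the 10 claudin genes in each of the 6 libraries, on a log axis for the 7 genes tested (left) and on a linear axis for the 3 genes under the minimum mean (right). Symbols stand for libraries 1 to 3 of a group and short lines for the group mean. CLDN1, CLDN3, CLDN4 and CLDN15 lie higher in every ARID1A-deficient library, while CLDN7, CLDN12 and CLDN23 overlap.

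CLDN1 is a main strand-forming protein of epithelia, and its loss makes skin leaky to water. It was at 60.7, 49.2 and 55.9 FPKM in parental cells and at 150.05, 137 and 139 FPKM in ARID1A-deficient cells. All 3 ARID1A-deficient libraries lay above all parental ones. With means of 55.3 ± 5.79 and 142 ± 6.86 FPKM (SD, n = 3 each), the log2 fold change was 1.35 ± 0.12 (SE, limma adjusted p = 0.000474). By log2 fold change CLDN1 took place 169 among the 1003 genes called higher.

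CLDN4, a receptor of Clostridium perfringens enterotoxin and a seal against cations in many epithelia, measured 5.54, 5.31 and 5.42 FPKM in parental cells. In ARID1A-deficient cells it measured 17.6, 21.6 and 19.8 FPKM. The parental libraries lay close together and far below the others. With means of 5.42 ± 0.111 and 19.7 ± 1.99 FPKM (SD, n = 3 each), the log2 fold change was 1.68 ± 0.096 (SE, limma adjusted p = 7.90e-05). It took place 101 among the genes called higher and was the member with the largest change of the 7 tested.

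CLDN3, the neighbour of CLDN4 and also a receptor of that enterotoxin, was at 15.7, 26.2 and 15.9 FPKM in parental cells and at 33.3, 44.6 and 36.7 FPKM in ARID1A-deficient cells. Library 2 was the highest of each group, and the groups did not overlap. The log2 fold change was 0.98 (SE 0.21, limma adjusted p = 0.0227). The call ended when parental library 1 or 3 or any single ARID1A-deficient library was left out (highest adjusted p = 0.0877), with a log2 fold change of 0.86 to 1.21 throughout. Without parental library 2 the adjusted p was 0.000155. The calls of CLDN1 and CLDN4 held without any single library, with highest adjusted p of 0.00610 and 0.00166.

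CLDN7, which binds EPCAM and is found along the lateral membrane of many epithelia, measured 133, 191 and 148 FPKM in parental and 157, 189 and 174 FPKM in ARID1A-deficient libraries. The groups overlapped. The log2 fold change was 0.15 with a 95% confidence interval of -0.25 to 0.55 (limma adjusted p = 0.608), so an increase of the size seen for CLDN1 or CLDN4 lies outside the interval. CLDN18, a claudin of stomach and lung, was close to 0 in every library. It was listed at 0.0416, 0 and 0.0814 FPKM in parental and at 0.0814, 0.0570 and 0 FPKM in ARID1A-deficient libraries. The value is per gene and does not separate the gastric from the lung form, and at this level a difference was not detectable.

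Among the cation channel-forming members, CLDN15, a sodium pore of the intestine, measured 8.46, 13.2 and 8.97 FPKM in parental libraries. It measured 13.7, 19.1 and 18.8 FPKM in ARID1A-deficient libraries. Each ARID1A-deficient value lay above each parental value, with ARID1A-deficient library 1 just above parental library 2. The log2 fold change was 0.71 with a 95% confidence interval of 0.25 to 1.17, and the limma adjusted p = 0.0507 did not pass. It passed with 7 of 15 alternatives, among them median-ratio scaling (adjusted p = 0.0422) and the leaving out of parental library 2 (adjusted p = 0.00198), and the adjusted p reached 0.182 without ARID1A-deficient library 3.

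CLDN2, the cation and water pore of leaky epithelia, stayed under the minimum mean, with 0.120, 0.284 and 0.165 FPKM in parental and 0.435, 0.529 and 0.332 FPKM in ARID1A-deficient libraries. CLDN16, needed for magnesium uptake in the kidney, measured 0.107, 0.0817 and 0.0627 FPKM against 0.167, 0.146 and 0.241 FPKM. For both genes the groups did not overlap, at levels far below those of the other pore former CLDN15. Groups also did not overlap for 35.3% of all genes tested, a set that leaves both genes out. When genes of any level were tested, neither passed, with a limma adjusted p = 0.0657 for CLDN2 and adjusted p = 0.0878 for CLDN16. The RefSeq gene of CLDN16 spans that of CLDN1, which lies on the other strand, and the library kit does not mark strand. No stretch of 50 bases of the longest CLDN1 transcript occurs in a CLDN16 transcript of GENCODE release 29.

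Neither of the less defined members passed, and both had the lower mean in ARID1A-deficient cells. CLDN12, an unusual claudin that lacks the PDZ-binding end, measured 9.63, 6.88 and 8.39 FPKM in parental and 7.03, 5.76 and 6.40 FPKM in ARID1A-deficient libraries. The ranges overlapped through parental library 2. The log2 fold change was -0.32 with a 95% confidence interval of -0.64 to -0.0054 (limma adjusted p = 0.163), and without parental library 2 it passed (adjusted p = 0.0192). CLDN23 measured 2.88, 3.25 and 3.52 FPKM against 2.50, 2.05 and 3.38 FPKM, with a log2 fold change of -0.22 and an interval of -0.58 to 0.13 (limma adjusted p = 0.381).

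**Figure D2:**
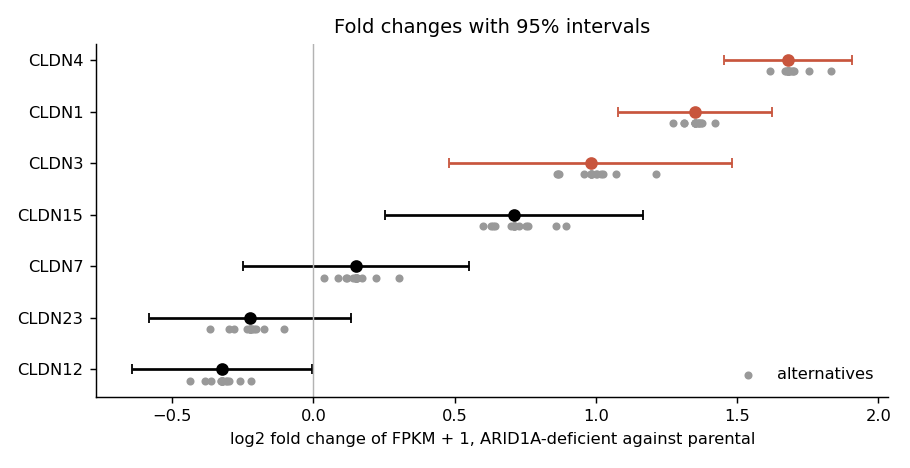
Log2 fold changes of FPKM + 1 for the 7 tested claudins, ARID1A-deficient against parental, with 95% confidence intervals from limma (red for adjusted p under 0.05). Grey points give the value under each alternative processing or with 1 library left out. CLDN4, CLDN1 and CLDN3 lie at 1.68, 1.35 and 0.98, and CLDN15 at 0.71.

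Parental library 2 had the steepest trend with GC content. In it, log2 values rose with transcript GC content by 0.0135 per percentage point relative to the mean over libraries, against -0.00975 to 0.00607 in the other libraries. It also held the highest parental values of CLDN3, CLDN7 and CLDN15, whose longest transcripts are 69.2%, 59.6% and 60.2% GC. Other GC-rich members did not share this, since CLDN23, with 60.7% GC, was highest in parental library 3 and CLDN4, with 57.5% GC, was lowest in parental library 2. Parental library 2 also had a trend with transcript length, of -0.0484 per doubling, against -0.0215 to 0.0516 in the other libraries. The longest transcripts of CLDN3, CLDN7 and CLDN15 have 1274, 1923 and 2131 bases, that of CLDN23 has 2169 and that of CLDN4 has 4163. The part of either trend in these values was not tested. With each library's GC trend removed, a step added after the data were seen, CLDN3 kept a log2 fold change of 0.99 (limma adjusted p = 0.00130), and CLDN15 passed at 0.71 (adjusted p = 0.00875). CLDN12, with 38.1% GC, then passed as lower (adjusted p = 0.0287). With the length trend removed instead, CLDN3 and CLDN15 passed (limma adjusted p = 0.0125 and 0.0377) and CLDN12 did not (adjusted p = 0.137).

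Ratios between members within a library compare genes measured in the same RNA. They were chosen after the values were seen and are given as a description. The CLDN3 to CLDN7 ratio was 0.119, 0.137 and 0.107 in parental libraries and 0.212, 0.236 and 0.211 in ARID1A-deficient libraries. The CLDN1 to CLDN7 ratio was 0.458, 0.257 and 0.378 against 0.957, 0.726 and 0.803, lowest in library 2 of each group. The CLDN15 to CLDN7 ratio was 0.0639, 0.0691 and 0.0607 against 0.0873, 0.101 and 0.108. The CLDN4 to CLDN3 ratio was 0.353, 0.203 and 0.342 against 0.528, 0.484 and 0.540. All 4 ratios were higher in every ARID1A-deficient library than in any parental library.

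In parental cells the order by mean FPKM, a level per length, ran from CLDN7 through CLDN1, CLDN3, CLDN15, CLDN12 and CLDN4 to CLDN23. The ranges of CLDN15 and CLDN12 overlapped there, and those of the other neighbours in this order did not. In ARID1A-deficient cells CLDN4 stood before CLDN15, with overlapping ranges, and CLDN12 came after both. The sum over all 23 claudin rows came to 241, 302 and 252 FPKM in parental cells and to 386, 425 and 402 FPKM in ARID1A-deficient cells. CLDN7 supplied 59.0% ± 4.15 of it in parental and 42.8% ± 1.95 in ARID1A-deficient cells, and CLDN1 supplied 21.2% ± 4.53 and 35.3% ± 3.34 (SD, n = 3 each). The share of CLDN4 was 2.07% ± 0.278 and 4.85% ± 0.266. CLDN7 was the largest share in every library.

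**Figure D3:**
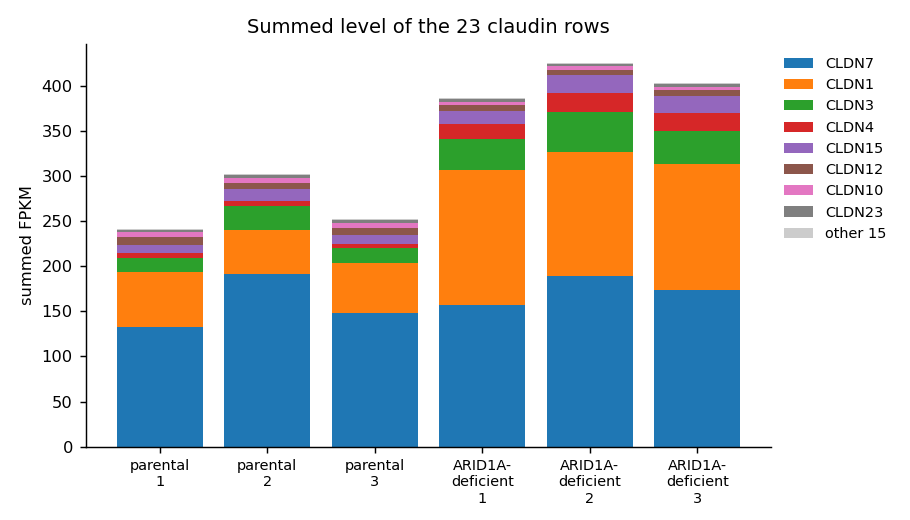
Summed FPKM of the 23 claudin rows in each library, stacked by gene, with 15 low rows joined. The ARID1A-deficient libraries sum to 386 to 425 FPKM and the parental ones to 241 to 302 FPKM, and the CLDN1 segment differs most.

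The other 13 claudin rows were low or absent, apart from CLDN10. CLDN10, a gene with forms that pass either cations or anions, measured 4.65, 5.93 and 5.39 FPKM against 3.67, 4.49 and 2.93 FPKM, a log2 fold change of -0.44 that did not pass (limma adjusted p = 0.10). CLDN5, the claudin of endothelium, measured 0.434, 0.436 and 0.213 FPKM against 0.0685, 0.213 and 0.156 FPKM. CLDN8, CLDN14, CLDN19, CLDN22, CLDN24 and CLDN25 were listed at 0 in all 6 libraries.

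The upstream sequences of the 4 tested members whose groups did not overlap are shown because these are the genes whose levels lay apart. Groups did not overlap for 4 of the 7 tested members and for 35.3% of all genes tested. Each is the 250 bases before a RefSeq transcript start in build GRCh38.p14, 5′ to 3′ on the gene's strand. Capitals mark matches on either strand to TGANTCA, a loose pattern that takes in TGACTCA and TGAGTCA, the letters bound by AP-1 factors.
CLDN1: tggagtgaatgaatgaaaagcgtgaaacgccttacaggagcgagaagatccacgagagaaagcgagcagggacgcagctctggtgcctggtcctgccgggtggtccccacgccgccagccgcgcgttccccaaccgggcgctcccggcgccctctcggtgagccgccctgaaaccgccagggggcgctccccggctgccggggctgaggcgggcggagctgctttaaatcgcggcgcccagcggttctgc
CLDN3: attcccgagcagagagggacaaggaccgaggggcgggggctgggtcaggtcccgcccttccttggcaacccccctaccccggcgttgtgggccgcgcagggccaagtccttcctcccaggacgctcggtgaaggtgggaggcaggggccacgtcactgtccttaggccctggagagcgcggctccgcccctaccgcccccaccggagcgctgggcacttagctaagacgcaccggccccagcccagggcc
CLDN4: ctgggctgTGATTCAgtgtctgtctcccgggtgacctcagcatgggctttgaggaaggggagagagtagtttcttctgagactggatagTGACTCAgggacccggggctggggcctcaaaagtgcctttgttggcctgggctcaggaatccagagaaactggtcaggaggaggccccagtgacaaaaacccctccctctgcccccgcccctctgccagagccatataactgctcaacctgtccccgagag
CLDN15: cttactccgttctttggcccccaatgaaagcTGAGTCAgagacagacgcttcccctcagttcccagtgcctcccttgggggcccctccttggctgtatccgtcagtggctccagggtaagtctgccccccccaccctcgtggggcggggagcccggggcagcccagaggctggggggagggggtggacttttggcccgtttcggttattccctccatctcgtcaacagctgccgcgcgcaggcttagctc
The stretches lie at chr3:190322447-190322696 for CLDN1 and chr7:73770271-73770520 for CLDN3, both on the minus strand, at chr7:73830746-73830995 on the plus strand for CLDN4 and at chr7:101237803-101238052 on the minus strand for CLDN15.

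Promoter windows of 300 bases, from 250 before to 50 after the start, were found in the RefSeq table for 9 of the 10 members, all but CLDN23, with 13 starts in all. The loose pattern TGANTCA occurred in 4 of these 13 windows and in 7.71% of 35116 promoters. CLDN4 had 2 matches, TGATTCA 242 and TGACTCA 161 bases before its start. CLDN15 (TGAGTCA), CLDN2 (TGATTCA) and CLDN16 (TGAATCA) had 1 each. Of these letters, only TGACTCA and TGAGTCA are the AP-1 form. CLDN1 and CLDN3 had none in this window. The E-box CACCTG, which SNAI and ZEB repressors bind, also occurred in 4 of 13 windows and in 20.6% of all promoters. One CLDN7 start held 5 of these E-boxes, and CLDN3 held 1, 36 bases after its start. The TEAD letters GGAATG were found in the CLDN15 window alone, across its start (14.0% of all promoters), and the grainyhead letters AACCGGTT in none (0.134%). Both strands were searched, none of the matches overlapped, and a match is a description of the letters only.

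The claudin genes with higher values lie in different places. CLDN3 and CLDN4 are next to each other in the order of tested genes on chromosome 7, and CLDN15 and CLDN12 lie farther along it. The next tested gene beyond CLDN3, ABHD11, had a log2 fold change of 0.019, and that beyond CLDN4, WBSCR27, had -0.78 (limma adjusted p = 0.0516). Over 40 tested neighbours of this pair, with both claudins left out, the median was 0.057, with 2 called higher and 3 lower. CLDN1 lies on chromosome 3 between LEPREL1 and IL1RAP, whose log2 fold changes were 0.69 (limma adjusted p = 0.00628) and 0.79 (adjusted p = 0.0514). Its 40 neighbours had a median of -0.053, with 5 higher and 4 lower. For CLDN15 that median was 0.049. CLDN23 on chromosome 8 sat among neighbours with a median of -0.33, with 12 of 31 called lower, and its own value was -0.22.

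**Figure D4:**
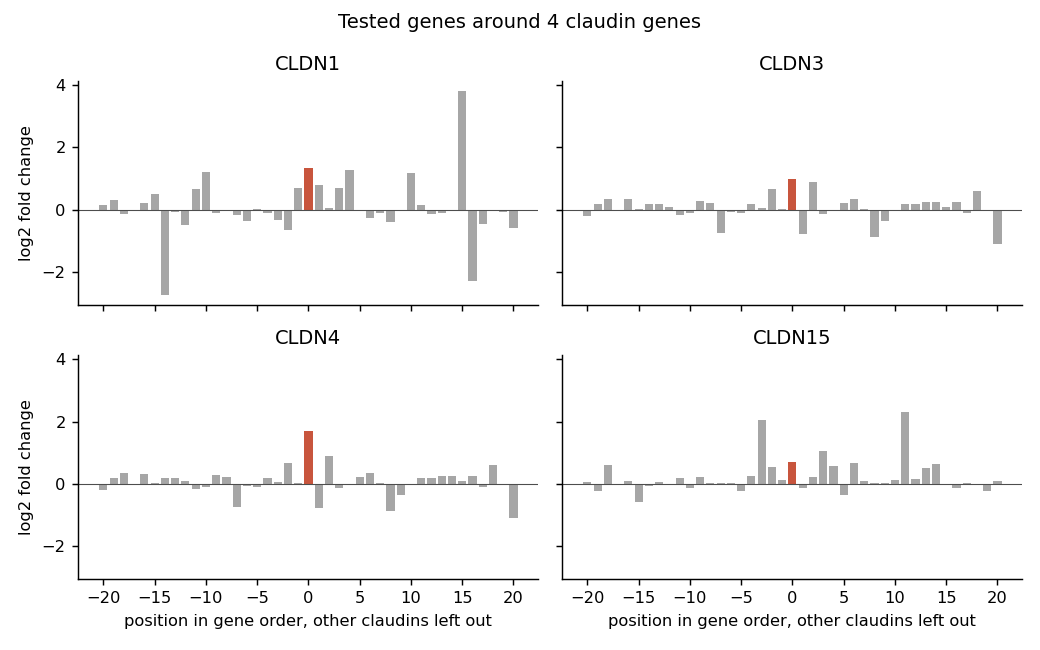
Log2 fold changes of the tested genes at up to 20 places on each side of CLDN1, CLDN3, CLDN4 and CLDN15 in RefSeq gene order, with the claudin in red at position 0 and other claudins left out. The medians of the grey bars lie at -0.053, 0.057, 0.057 and 0.049, and the bars of CLDN3 and CLDN4 are the same genes.

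Most other genes of the tight junction, like most of all genes tested, did not pass the test. Of 35 listed partner genes, 34 were found by symbol and 26 were tested. Of these 4 were higher, 0 were lower and 22 did not pass, beside 7.82% and 8.11% of all genes (6 and 0 where the unadjusted p was under 0.05). The 4 of 26 called lie near the 15.9% of all genes called. The median log2 fold change was -0.055. The scaffold genes TJP1 and TJP3 had limma adjusted p-values of 0.655 and 0.249. TJP1 measured 9.20 ± 2.59 and 10.1 ± 1.21 FPKM (SD, n = 3 each). OCLN, which encodes the strand protein occludin, measured 0.665 ± 0.315 and 0.604 ± 0.122 FPKM (limma adjusted p = 0.900). F11R, the junctional adhesion molecule A gene, measured 35.5 ± 1.29 and 39.4 ± 1.47 FPKM (adjusted p = 0.271), and CGN, the cingulin gene, was under the minimum mean with 0.361 ± 0.0653 and 0.419 ± 0.0517 FPKM. MPDZ, a scaffold with many PDZ domains that binds claudins, also stayed under that mean, with 0.887, 0.358 and 0.647 FPKM in parental cells and 0.00710, 0 and 0.0341 FPKM in ARID1A-deficient cells. It was the partner that passed as lower when genes of any level were tested, and it was chosen after its values were seen.

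The partners that rose were the angiomotin-like genes AMOTL2 and AMOTL1, whose products bind YAP at junctions, and the polarity genes PARD6A and PARD6B. AMOTL2 rose 1.82-fold, with means of 8.82 ± 1.54 and 16.0 ± 1.47 FPKM (SD, n = 3 each, limma adjusted p = 0.00908), a call that held without any single library. PARD6A rose 1.82-fold, with means of 5.13 ± 1.51 and 9.34 ± 0.991 FPKM, PARD6B rose 1.97-fold and AMOTL1 rose 1.79-fold. The count of partners that were higher fell to 1 when parental library 3 or ARID1A-deficient library 1 or 3 was left out, and the PARD6A call also ended when parental library 1 or ARID1A-deficient library 2 was.

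Of 26 genes for factors known to act on claudin genes, 19 were tested, and 4 were higher, 4 lower and 11 not past the threshold, beside 7.82% higher and 8.11% lower over all genes. The median log2 fold change was 0.031. ELF3, an epithelial ETS factor, fell 5.34-fold, with means of 121 ± 7.94 and 22.7 ± 1.72 FPKM (SD, n = 3 each, limma adjusted p = 2.23e-05). GRHL3, a grainyhead factor of epithelial barriers, rose 5.05-fold, with means of 0.216 ± 0.0566 and 1.09 ± 0.0549 FPKM (adjusted p = 0.00128). It reached the minimum mean of 0.5 FPKM only through its ARID1A-deficient values. When genes of any level were tested, it also passed (adjusted p = 0.000919). FOXA2, a factor of endodermal epithelia, rose 2.53-fold to 12.1 ± 0.226 FPKM (adjusted p = 0.000473), and GATA4, another endodermal factor, fell 1.65-fold to 5.62 ± 0.451 FPKM (adjusted p = 0.00449). These 4 calls held without any single library. NKX2-1, a listed factor chosen after its values were seen, went the other way and stayed under the minimum mean. Its means were 0.747 ± 0.0850 and 0.129 ± 0.0470 FPKM, and the groups did not overlap.

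Factors known for a mesenchymal programme moved in both directions. SNAI2 fell 1.41-fold, with means of 11.8 ± 0.647 and 8.35 ± 0.390 FPKM (SD, n = 3 each, limma adjusted p = 0.0133). SNAI1 rose 2.24-fold, with means of 0.504 ± 0.211 and 1.13 ± 0.113 FPKM, and TWIST1 rose 1.46-fold to 10.1 ± 0.918 FPKM. FOXA1, a relative of FOXA2, fell 1.58-fold to 13.2 ± 0.907 FPKM. The calls of SNAI2, SNAI1, TWIST1 and FOXA1 ended whenever parental library 3, ARID1A-deficient library 2 or ARID1A-deficient library 3 was left out. Those of SNAI1 and TWIST1 also ended without parental library 1, and that of SNAI1 without ARID1A-deficient library 1, with a pseudocount of 0.1 and with quantile normalization. The highest adjusted p lay between 0.0700 for SNAI2 and 0.128 for SNAI1. Without parental library 2, 7 of the listed factors were lower, beside 2104 of all 12827 genes then tested. ZEB1 measured 0.957 ± 0.240 and 0.996 ± 0.189 FPKM (adjusted p = 0.905), and CDX2, an intestinal factor that acts on CLDN2, measured 4.16 ± 0.225 and 4.41 ± 0.730 FPKM (adjusted p = 0.796). GRHL2 was listed at 0 in 5 libraries and at 0.0128 FPKM in parental library 3, and a listed 0 can be a failed estimate.

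Of 16 genes for proteins that bind or modify claudins or sit in the adjoining adherens junction, 15 were tested, with 2 higher, 0 lower and 13 not past the threshold, beside 7.82% and 8.11% of all genes (2 and 3 where the unadjusted p was under 0.05). The 2 of 15 called lie near the 15.9% of all genes called. EPCAM measured 234, 269 and 258 FPKM against 207, 195 and 187 FPKM, without overlap, and did not pass (limma adjusted p = 0.101). Among those that passed, WNK4, a kinase gene of paracellular chloride transport, rose 1.77-fold, with means of 0.618 ± 0.139 and 1.09 ± 0.108 FPKM (SD, n = 3 each, limma adjusted p = 0.0472). Its call ended when any library other than parental library 2 was left out and with 4 other alternatives (highest adjusted p = 0.159). Without parental library 2, 4 of the listed genes were lower, beside 2104 of all 12827 genes then tested.

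**Figure D5:**
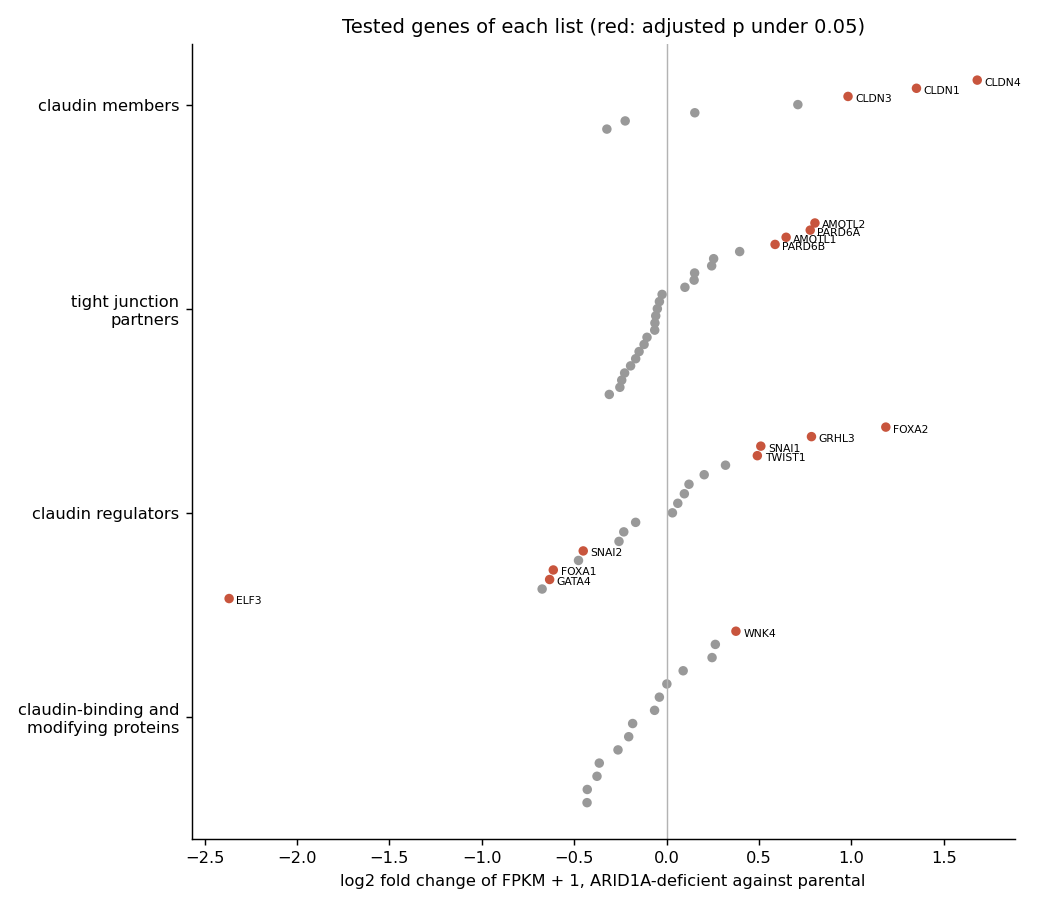
Log2 fold changes of FPKM + 1 for the tested claudins and for the tested genes of 3 lists but 2, ARID1A-deficient against parental, 1 point per gene (red and named for limma adjusted p under 0.05). Within a list points are spread vertically by rank only. ELF3 lies lowest at -2.37 and CLDN4 highest at 1.68.

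Shared sequence could let reads of one gene count for another. Of all 50-base windows of the longest GENCODE transcript, 0% of those of CLDN1, CLDN15 and CLDN23 occurred in a transcript of another gene on either strand. The share was 1.80% for CLDN3 and 0.705% for CLDN4, which have 22 windows in common. It was 11.7% for CLDN7, all with the unnamed gene AC003688.1, and 4.47% for CLDN12. It was 9.48% for CLDN2, all with RIPPLY1 on the other strand. How the authors counted such reads is not known.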

How the data were processed

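L3.6pl libraries of 2 groups, parental and ARID1A-deficient with 3 samples each, were grouped by the sample titles. The authors deposited 1 table of FPKM values per library. The tools listed, per the submitters' processing notes, are TopHat2 (2.1.1), the normalizer Cuffnorm (2.2.1.2) and the tester Cuffdiff (2.2.1.5), with build GRCh37 (hg19). The unit was read from the layout and the values, since no header names it. The gene annotation, any filters, the library scaling and the fragment totals are not known here.

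From 23273 rows, 28 whose symbol had become a date were left out. Log2(FPKM + 1) values of the 12826 genes whose mean reached 0.5 FPKM were fitted with limma 3.58.1 (R 4.3.3, variance trend, robust), with group as the only term, and adjusted by Benjamini-Hochberg (threshold 0.05). On values simulated for 12826 genes, 77 of 100 changes of 1 and 89 of 100 changes of 2 on the log2 scale were recovered, with 7 false calls. Changes were placed only in genes above a level cut. The noise was normal and independent, without trends with GC content or length, so recovery for low genes and in these libraries may differ.

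Named genes were the 10 members, other claudin rows, the called genes with the 5 smallest adjusted p in each direction of 3 lists, defining junction genes, and the next neighbours. For 2 listed genes the values are not reported here, though the counts include them. Members and lists were chosen with earlier results of these data known. Alternatives were the pseudocount, the filter, scaling, variance moderation, a replicate block, trends with transcript length and GC content, and each library left out. Transcript lengths (for 96.0% of tested genes) came from GENCODE release 29, and promoters and gene order (96.7%) from RefSeq, both of GRCh38.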

Additional observations from a re-analysis of the deposited data

How the results depend on the processing

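CLDN1 and CLDN4 stayed past the threshold as higher under all 15 alternatives, and CLDN3 under 10 of 15. With 1 library left out, 2 to 4 claudins were higher and 0 to 1 lower. The 1 lower claudin, CLDN12, also appeared with the replicate block and with the GC trend removed (1 each). Leave-one-out counts were 1 to 5 higher for junction partners, 2 to 4 higher and 2 to 7 lower for regulators, and 1 to 3 higher and 0 to 4 lower for claudin-binding and modifying proteins. Over all genes they were 522 to 2009 higher and 438 to 2104 lower, against 1003 and 1040.

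The replicate block gave 1861 genes higher and 2188 lower, with 2 junction partners and 4 claudin-binding or modifying genes lower, and CLDN15 (adjusted p = 4.62e-05), CLDN12 (adjusted p = 0.0202), CLDN10 (adjusted p = 0.00717) and EPCAM (adjusted p = 0.0314) past the threshold. Deviations from the group means correlated at 0.219, 0.217 and -0.0131 for numbers 1, 2 and 3. Pairs of unlike number lay between -0.267 and 0.0825. The libraries of number 3 did not correlate best with each other. Whether samples with the same number were paired is not known.

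A minimum mean of 3 FPKM gave 667 genes higher and 2 regulators higher, since fewer genes were tested. Without a filter 1 junction partner was lower. Claudin-binding or modifying genes that were higher numbered 1 with a pseudocount of 0.1, the minimum of 3 FPKM, quantile normalization, no robust moderation or the GC trend removed. Lower ones numbered 2 with quantile normalization and 1 with the GC trend removed. The cause was not tested. With no fragment totals, precision rests on 3 libraries a group, and CLDN2, CLDN16 and CLDN18 lie too low for a firm statement.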
